A study of Mus musculus with 10 samples.

Results

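Sdc1 encodes syndecan-1, a cell-surface proteoglycan that carries heparan sulphate chains. In B16 and in MC38 cells the gene had been knocked down and a form of it then put back. The comparison described here sets the effect of putting Sdc1 back in B16 against the effect of putting it back in MC38, gene by gene: the log2 change in B16 minus the log2 change in MC38. It used all 10 libraries of the series and covered the 16877 genes, of 60676 rows in the count table, that had enough reads to be tested. All of these genes enter, so no gene was chosen for its value in advance.

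Syndecans bind growth factors, chemokines and matrix proteins through their heparan sulphate chains and act as co-receptors, and their outer part can be cut off and shed. Their short inner part links to the cytoskeleton. Syndecan-1 is found mainly on epithelial and plasma cells, and syndecan-1 on liver cells is known as a receptor for lipoprotein remnants. Interferon gamma, with which all of these cells had been treated, acts through JAK kinases to switch on antigen presentation, guanylate-binding proteins and chemokines.

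The groups were 5 with 2 libraries each. B16, a mouse melanoma line, was studied as Sdc1 knockdown cells given wild-type Sdc1, against Sdc1 knockdown cells. MC38, a mouse colon carcinoma line, was studied as Sdc1 knockdown cells given either a form named the c30 mutant or a form named the ect mutant, against Sdc1 knockdown cells. The labels do not say what either mutant lacks. Every library, the knockdown controls included, came from cells stimulated with interferon gamma at 10 ng/ml for 24 h, and no library of either line without knockdown, without interferon gamma or with an empty vector was analysed here. The wild-type form was in B16 only and the mutant forms were in MC38 only, so the line and the form of Sdc1 cannot be told apart. Nothing in the labels ties the 2 libraries of a group to separate cultures. The p-values therefore measure the spread between libraries, which may be technical. Whether a line is a single clone is not stated.

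The libraries held 11349447 to 15041133 counted reads. Their lines matched the labels by 12 melanocyte markers, which summed to 13860 to 14690 CPM, that is reads scaled to a common library size, in B16 libraries and to 10.96 to 17.41 CPM in MC38 libraries. Of 21 epithelial markers, 2 reached 1 CPM in B16 libraries and 3 to 4 in MC38 libraries, so the defining markers of an epithelium were largely absent from the colon carcinoma line. The 18 leukocyte markers summed to 11.87 to 13.49 CPM in B16 and to 9.947 to 10.66 CPM in MC38. In MC38 the 12 endothelial and stromal markers summed to 106.8 to 117 CPM in c30 and ect libraries, against 147.2 and 156.1 CPM in knockdown libraries, and the epithelial markers to 14.97 to 18.77 CPM in c30 and ect libraries, against 22.36 and 22.23 CPM in knockdown libraries. These sums moved with the MC38 effect, and their part in the results was not tested. The epithelial sum includes Cdh1, whose reads are given below. Of the 6 epithelial markers with enough reads to be tested, 2 had a negative log2 effect in MC38, and the median over the 6 was 0.14. The B16 wild-type Sdc1 libraries differed most from each other: the chi-square over genes between the libraries of a group was 23 per degree of freedom for that pair, against 4.13 to 7.06 in the other 4 groups. Gene length and GC content accounted for 40.6% of the deviance of the second B16 wild-type library and 16.5% of the first, against 3.45% and 16.5% in the B16 knockdown libraries and 0.672% to 5.73% in the MC38 libraries. For that reason the main counts below are also given without each of the libraries.

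Sdc1 itself was measured first. In B16 its mRNA stood at 73.3 and 58.6 CPM in the cells given wild-type Sdc1, against 41.7 and 43.3 CPM in the knockdown cells, a log2 effect of 0.64 (adjusted p = 0.0069, edgeR quasi-likelihood test). In MC38 it stood at 94.9 and 99.2 CPM in c30 cells and at 22.4 and 24.9 CPM in ect cells, against 24.2 and 29.5 CPM in the knockdown cells. The c30 libraries were the highest of all 10, the ect libraries overlapped the knockdown libraries, and the B16 groups did not overlap. The mean MC38 effect was 0.84, made of 1.86 with c30 and -0.18 with ect, and the ect effect did not pass (adjusted p = 0.592). The difference of effects for Sdc1 was -0.20 (SE 0.148, adjusted p = 0.665) against the MC38 mean, -1.22 (adjusted p = 0.000143) against c30 alone and 0.81 (SE 0.16, adjusted p = 0.0161) against ect alone. How much Sdc1 mRNA was put back therefore differed between the arms, and its part in the other results was not tested. No source used here says why the ect libraries show no more Sdc1 reads than the knockdown.

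The effects differed between the lines for 82 genes at an adjusted p under 0.05, 0.486% of those tested. Of these, 49 genes (0.29%) had the higher effect in B16 and 33 (0.196%) the lower one. Genes of the cholesterol and fatty acid lists made up 17 of the 49, while these lists held 24 and 14 of the 16877 tested genes. The lists were chosen with earlier results of these data known. In the same fit 27 genes (0.16%) passed for the B16 effect alone, 4 higher (0.0237%) and 23 lower (0.136%). In MC38 458 genes (2.71%) passed for the mean effect, 125 higher (0.741%) and 333 lower (1.97%). With an offset for gene length and GC content these splits were 34 higher and 65 lower for B16 and 535 higher and 647 lower for MC38. The common biological coefficient of variation was 8.68% over the B16 libraries alone and 4.84% over the MC38 libraries alone. The main fit gave all groups a shared estimate of the spread, 6.65% in common, so its p-values do not allow for the wider spread in B16. With limma-voom and library quality weights 11 genes passed for the B16 effect and 990 for the MC38 effect. The B16 effect also rests on 4 libraries rather than 6.

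The fitted effects of most of the 82 genes had opposite signs in the lines, as did those of 8729 of all 16877 tested genes, and a gene with a large difference of effects is more likely to have opposite signs by construction. Only 2 genes, Hmgcs1 and Dusp5, passed in both lines with opposite signs. Among the 49 with the higher effect in B16, 44 had effects of opposite sign, with a median effect of 0.18 in B16 and -0.39 in MC38. Of the 49, 47 passed for the MC38 effect and not for the B16 effect, Hmgcs1 passed for both and St6gal1 for neither. Among the 33 with the lower effect in B16, 31 had effects of opposite sign, with a median of -0.32 in B16 and 0.31 in MC38. Of the 33, 19 passed for the MC38 effect only, 7 for the B16 effect only, Dusp5 for both and 6 for neither. In 9 genes both effects passed, and 7 of these had the same sign in both lines: Sdc1, which rose, and Col5a1, Col6a1, Sparc, Thbs1, Apol6 and C1s1, which fell. The median differences were modest: the median size was 0.58 on the log2 scale among the 49, of which 5 differed by 2-fold or more, and 0.61 among the 33, of which 9 did. Over all 9620 genes with a mean of at least 5 CPM in both lines, the median difference was 0.0058 and 51.4% of the differences were positive.

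**Figure D1:**
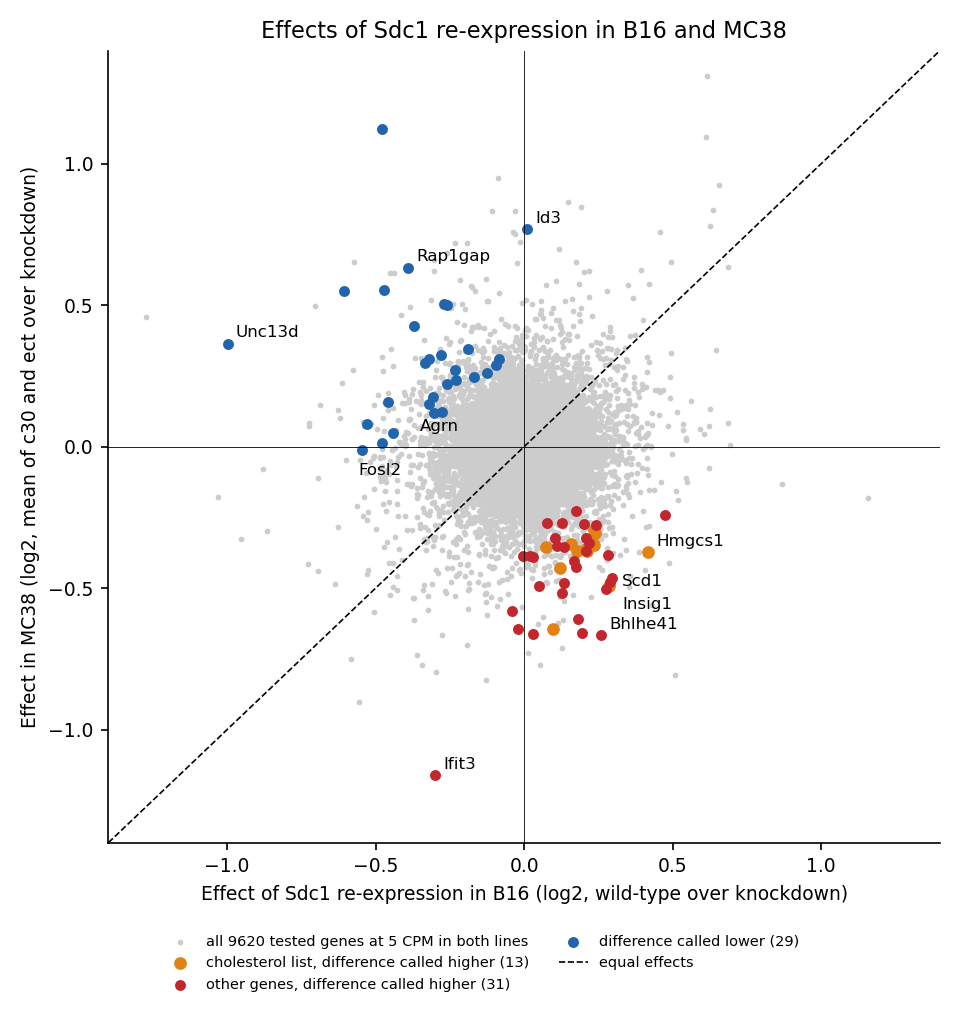
Log2 effect of putting Sdc1 back in B16 (horizontal, wild-type Sdc1 over knockdown) and in MC38 (vertical, mean of c30 and ect over knockdown) for the 9620 genes at 5 CPM or more in both lines, with genes whose effects differed in colour and 4 genes beyond the axis limit of 1.4 not drawn. The 44 coloured genes with the higher effect in B16 lie below the dashed line of equal effects, the 13 cholesterol genes among them to the lower right, and the 29 with the lower effect in B16 lie above it.

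Of the 82 genes, 81 also passed by DESeq2, 27 by limma-voom and 38 with a replicate block within each line. Limma-voom did not call Ifit3, Bhlhe41, Bhlhe40, Col1a2, Cd74, H2-DMb1, Ndrg1, Plaur or Ecm1. Each fit without 1 library shares its other libraries with the main fit, so an unchanged direction there is no separate support. The number of genes that passed also depended on single libraries. It was 1278 without the first B16 wild-type Sdc1 library and 434 without the second, and these counts held 82 and 81 of the 82 genes. It was 44 without the first and 19 without the second B16 knockdown library, 41 and 33 without a c30 library, 39 and 36 without an ect library, and 21 and 25 without an MC38 knockdown library. The direction of each of the 82 genes was the same in all 10 of these fits, and 13 genes passed in all of them, among them Cyp51, Fdps, Hmgcs1, Insig1 and Sqle of the cholesterol pathway, Scd1, Idh1, H1f0, Prex2, Ifit3, Unc13d and Dusp5. The other 69 genes lost their call in 1 to 8 of the fits.

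Cholesterol synthesis and uptake was the largest group. Cells make cholesterol from acetyl-CoA through mevalonate, isoprenoids and squalene, and the genes of the route are switched on together by the transcription factor SREBP2 when sterols in the endoplasmic reticulum fall. Insig1 holds SREBP2 back in that membrane and is itself one of its targets. Of 25 listed genes 24 were tested, all at 5 CPM or more in both lines, and 13 had a higher effect in B16 than in MC38 while none had a lower one. All 24 differences were positive, with a median of 0.47 on the log2 scale. The median effect was 0.14 in B16, with 22 of 24 genes positive, and -0.32 in MC38, with 24 of 24 negative. In the separate tests 1 of the 24 genes rose in B16 and 14 fell in MC38.

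The promoters of the genes with the largest differences in the pathway are shown for the letters they hold around the transcription start, 250 bases before it to 50 after, from RefSeq on mouse build GRCm38.p6. They are those of Hmgcs1, window chr13:119690101-119690400 on the plus strand, and Insig1, window chr5:28071162-28071461 on the plus strand. Capitals mark TCACNCCAC, a core letter pattern of sterol response elements, and CCAAT, the pattern bound by NF-Y, each read on either strand, so that CCAAT on the other strand appears as ATTGG. The patterns did not overlap in these windows.
Hmgcs1 promoter: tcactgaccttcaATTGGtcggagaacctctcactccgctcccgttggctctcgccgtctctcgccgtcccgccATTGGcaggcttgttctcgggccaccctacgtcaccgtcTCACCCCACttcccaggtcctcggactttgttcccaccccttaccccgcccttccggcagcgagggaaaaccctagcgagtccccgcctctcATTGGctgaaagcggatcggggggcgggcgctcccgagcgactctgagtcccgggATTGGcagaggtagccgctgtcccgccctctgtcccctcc
Insig1 promoter: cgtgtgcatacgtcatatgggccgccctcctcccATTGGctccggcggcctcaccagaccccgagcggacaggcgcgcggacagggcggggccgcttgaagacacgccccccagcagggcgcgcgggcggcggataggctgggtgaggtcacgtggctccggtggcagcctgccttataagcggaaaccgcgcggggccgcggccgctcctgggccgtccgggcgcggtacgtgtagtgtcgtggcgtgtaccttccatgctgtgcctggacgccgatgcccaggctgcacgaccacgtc
The Hmgcs1 window held 1 TCACNCCAC and 4 CCAAT matches, and the Insig1 window held 1 CCAAT match and no TCACNCCAC. Windows were at hand for 9 of the 13 cholesterol genes that passed. CCAAT was in 8 of the 9 (88.9%), against 41.1% of the promoters of 27025 genes, and TCACNCCAC was in 1 of the 9 (11.1%), against 1.44%. Over the whole list, genes that did not pass included, CCAAT was in 16 of 17 windows (94.1%) and TCACNCCAC in 1 (5.88%). CCAAT was thus as frequent over the list as among the genes that passed. Of the tested genes with a window, 42.8% held CCAAT. A match is a description of the letters only.

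Of the steps that form mevalonate and then use it, Hmgcs1, Acat2 and Mvd had the higher effect in B16. Hmgcs1, the cytosolic HMG-CoA synthase, stood at 146.5 and 168.6 CPM in B16 cells with wild-type Sdc1, against 119 and 116.7 CPM in B16 knockdown cells. In MC38 cells it had 147.3 and 156.2 CPM in c30 cells and 136.5 and 145.9 CPM in ect cells, against 190.1 and 189.4 CPM in knockdown cells. Neither line's groups overlapped, and Hmgcs1 was the only tested gene that rose in B16 (0.42, adjusted p = 0.0073) and fell in MC38 (-0.37, adjusted p = 0.00054); its difference was 0.79 (SE 0.096, adjusted p = 4.42e-05). Acat2, the cytosolic thiolase that starts the route, differed by 0.50 (adjusted p = 0.0297), while the second B16 wild-type library, at 97.55 CPM, lay within the B16 knockdown libraries at 94.08 and 97.86 CPM. Mvd, which makes isopentenyl diphosphate, had 21.86 and 17.93 CPM in B16 wild-type Sdc1 cells, against 16.33 and 20.97 CPM in B16 knockdown cells, which overlapped. Its 63.54 and 64.4 CPM in c30 cells and 53.41 and 55.27 CPM in ect cells lay below the 84.28 and 100 CPM of MC38 knockdown cells. The difference for Mvd was 0.74 (SE 0.161, adjusted p = 0.0294) and came mainly from MC38, with effects of 0.10 in B16 and -0.64 in MC38. Mvk and Pmvk, the kinases between these steps, had differences of 0.19 and 0.44 and did not pass.

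The isoprenoid and squalene steps also had the higher effect in B16. Sqle, squalene epoxidase, stood at 163.1 and 164.8 CPM in B16 wild-type Sdc1 cells, against 141.6 and 136.7 CPM in B16 knockdown cells. The MC38 levels were 183.3 and 195.5 CPM in c30 cells and 182.9 and 183.6 CPM in ect cells, against 236.7 and 237.3 CPM in knockdown cells. The difference was 0.58 (SE 0.086, adjusted p = 0.000836), with no overlap in either line. Idi1, Fdps and Fdft1, which lead to farnesyl diphosphate and squalene, differed by 0.57, 0.58 and 0.57. Lss and Cyp51, which make and trim lanosterol, differed by 0.43 and 0.55, and Msmo1 and Nsdhl, which take off further methyl groups, by 0.53 and 0.55. Each of these 7 genes passed, with adjusted p-values of 0.00128 to 0.0317. Other listed synthesis genes did not pass by edgeR, with differences of 0.18 for Ebp, 0.20 for Dhcr7, 0.22 for Hsd17b7, 0.39 for Tm7sf2 and 0.42 for Sc5d (adjusted p = 0.0599), which passed by DESeq2.

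The regulators split. Insig1 stood at 175.5 and 174 CPM in B16 wild-type Sdc1 cells, against 144.1 and 142.3 CPM in B16 knockdown cells. It stood at 195.8 and 188.3 CPM in c30 cells and 192.7 and 187 CPM in ect cells, against 270.6 and 266.1 CPM in MC38 knockdown cells. The libraries of a group lay close together and the groups of a line far apart, and the difference of 0.78 (SE 0.084, adjusted p = 1.21e-05) was the smallest p-value of the pathway; it lay between 0.76 and 0.81 whichever library was left out. Srebf2, which encodes SREBP2, differed by 0.23 (adjusted p = 0.434) and Stard4, a sterol carrier, by 0.38 (adjusted p = 0.0599). Both were positive and did not pass by edgeR, and Stard4 passed by DESeq2. Of the 24 genes DESeq2 called 15 and limma-voom called 9. Acat2, Fdft1, Idi1, Lss, Msmo1, Mvd and Nsdhl kept their direction and lost their call in 1 to 8 of the 10 fits that left out a library, with adjusted p-values of up to 0.2751.

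Library by library the pattern was uneven in B16 and even in MC38. Over the 24 genes the median log2 value relative to the knockdown mean of the same line was 0.20 in the first B16 wild-type Sdc1 library, with 23 genes above, and 0.12 in the second, with 18 genes above. It was -0.29 and -0.28 in the c30 libraries and -0.33 and -0.36 in the ect libraries, with all 24 genes below in each of the 4. In B16 there was no overlap, with the wild-type Sdc1 libraries on top, for 14 of the 24 genes, against 16.3% of all tested genes. In MC38 there was no overlap, with the 4 c30 and ect libraries at the bottom, for 21 of the 24, against 13.6% of all tested genes.

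**Figure D2:**
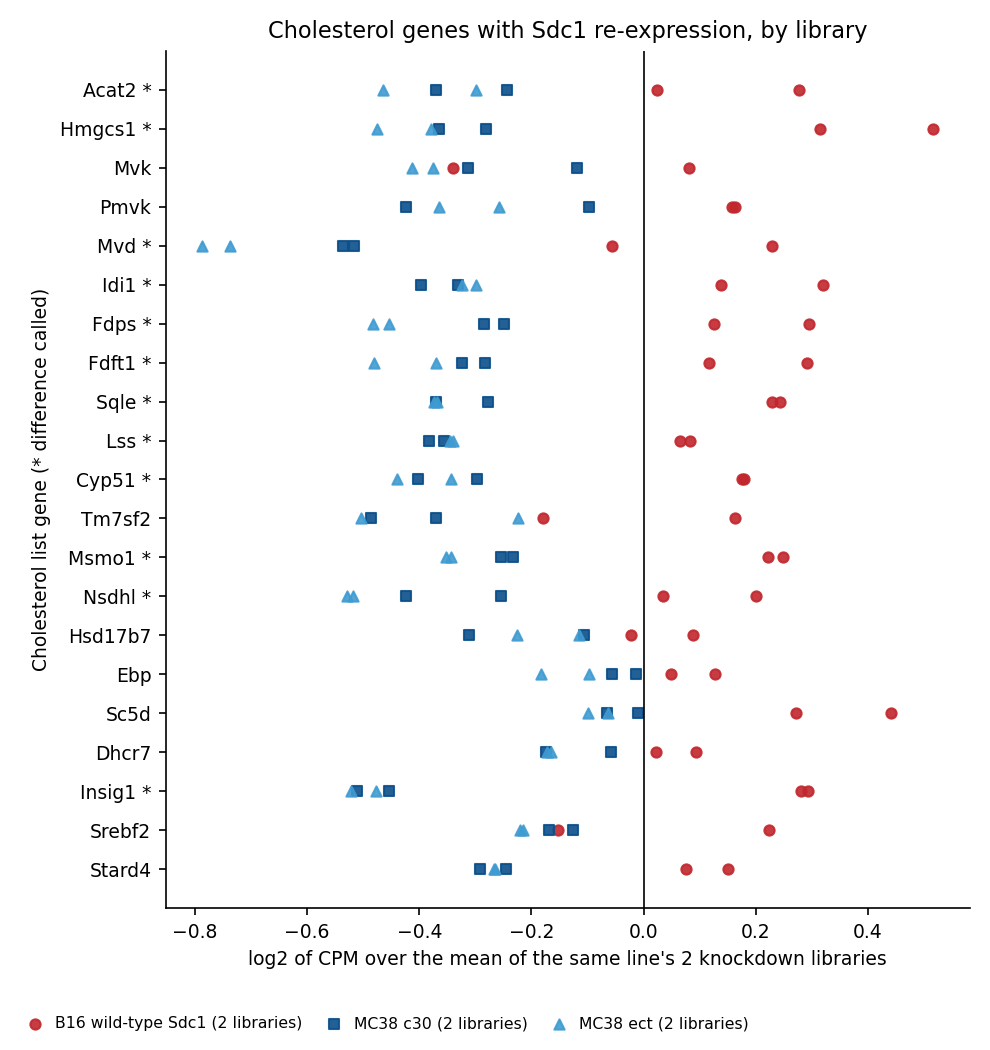
Of the 24 tested genes of cholesterol synthesis and uptake, the 21 reported by name, each library drawn as the log2 of its CPM over the mean of the 2 knockdown libraries of its own line (horizontal), with an asterisk on the 12 of them whose effects differed. The c30 and ect points lie left of zero for every gene, and the B16 wild-type Sdc1 points lie right of zero for most, with medians of 0.20 and 0.12 over all 24 genes.

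Fatty acid synthesis and desaturation went the same way in part. Desaturases put double bonds into fatty acids, and several are targets of the SREBP factors. Of 14 listed genes, all tested, 4 had a higher effect in B16 and none a lower one, 13 differences were positive and the median was 0.27. Scd1, the stearoyl-CoA desaturase, stood at 192.3 and 199 CPM in B16 wild-type Sdc1 cells, against 157.1 and 163.5 CPM in B16 knockdown cells. In MC38 it stood at 284.7 and 296.7 CPM in c30 cells and 260.7 and 276 CPM in ect cells, against 385.1 and 393.7 CPM in knockdown cells. Its groups did not overlap in either line and the difference was 0.77 (SE 0.085, adjusted p = 1.21e-05). Acsl3, which activates long-chain fatty acids, differed by 0.53 (adjusted p = 0.0177), the desaturase Fads1 by 0.43 (adjusted p = 0.0382) and the desaturase Scd2 by 0.34 (adjusted p = 0.0317); these 3 lost their call in 4 to 8 of the fits that left out a library. DESeq2 called 5 of the 14, with Elovl5 as the fifth, and limma-voom called 2. The synthesis enzymes themselves did not pass: Fasn, fatty acid synthase, differed by 0.03 (SE 0.102), Acaca by 0.22, Acly by 0.23 and Srebf1, which encodes SREBP1, by -0.09. Acss2, which makes acetyl-CoA from acetate, had a difference of 0.74 with a wide error (SE 0.208, adjusted p = 0.115).

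Other metabolic genes with the higher effect in B16 included Idh1, the cytosolic isocitrate dehydrogenase that makes NADPH. It stood at 126.5 and 116.6 CPM in B16 wild-type Sdc1 cells, against 117.3 and 117.4 CPM in B16 knockdown cells. In MC38 cells it had 94.84 and 93.39 CPM in c30 cells and 90.41 and 89.69 CPM in ect cells, against 129.1 and 130.2 CPM in knockdown cells. The B16 groups overlapped and the MC38 groups did not, and the difference of 0.55 (SE 0.091, adjusted p = 0.00325) came from MC38. Tmem97, a membrane protein of the endoplasmic reticulum tied to cholesterol transport, differed by 0.48 (adjusted p = 0.0359), and Oat, ornithine aminotransferase, by 0.40 (adjusted p = 0.0276). St6gal1, which adds sialic acid to glycoproteins, differed by 0.71 (adjusted p = 0.0287), with 0.47 in B16 and -0.24 in MC38, neither of which passed. Idh1 and Tmem97, like H1f0, Prex2, Plod2 and Bmp1 below, fall outside the naming rule and were chosen after their values were seen, and the other genes named without library values are given to account for the rest of the 82 that are reported here by name.

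Few interferon-stimulated genes passed for the difference, which does not show that the effects on the others were equal. Of 40 tested antiviral genes 2, Ifit3 and Ifit3b, had a higher effect in B16 and none a lower one, 32 differences were positive and the median was 0.15. At an unadjusted p under 0.05 by edgeR there were 10 of the 40. In the separate tests 14 of the 40 fell in MC38, against 1.97% of all tested genes, and none passed in B16. Ifit3, an interferon-induced antiviral protein of the IFIT family, stood at 407.9 and 395 CPM in B16 wild-type Sdc1 cells, against 512.9 and 475.2 CPM in B16 knockdown cells. The MC38 levels were 5.00 and 4.43 CPM in c30 cells, from 58 and 51 reads, and 6.75 and 6.29 CPM in ect cells, against 13.3 and 11.4 CPM in knockdown cells. In both lines the libraries of cells given a form of Sdc1 lay lower, with no overlap. The effect was -0.30 in B16, which did not pass (adjusted p = 0.0698), and -1.16 in MC38 (adjusted p = 3.44e-07), and the difference was 0.86 (SE 0.129, adjusted p = 0.000965). The effects thus had the same sign and differed in size, at a level far lower in MC38 than in B16. Its RefSeq promoter, window chr19:34583279-34583578 on the plus strand of GRCm38.p6, is shown for the interferon response element, with GAAA, any 2 bases and GAAA again in capitals as read on either strand. On the other strand the pattern reads TTTC, any 2 bases and TTTC.
Ifit3 promoter: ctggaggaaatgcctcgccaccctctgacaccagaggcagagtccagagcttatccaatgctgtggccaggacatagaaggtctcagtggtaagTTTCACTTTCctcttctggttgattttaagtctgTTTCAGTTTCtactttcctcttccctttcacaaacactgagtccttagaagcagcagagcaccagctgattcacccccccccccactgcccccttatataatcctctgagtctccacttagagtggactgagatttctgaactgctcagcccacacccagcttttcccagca
The window held 2 matches, and 3.99% of the promoters of 27025 genes held at least 1.

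Ifit3b, a near-identical copy of Ifit3 whose reads the counting could have shared with it, had 112.3 and 113.5 CPM in B16 wild-type Sdc1 cells, against 123.9 and 121.7 CPM in B16 knockdown cells. It had 5 and 9 reads in c30 libraries and 9 and 16 in ect libraries, against 38 and 20 in MC38 knockdown libraries, and a difference of 1.35 (SE 0.311, adjusted p = 0.0403), which is uncertain for both reasons. Ifi203, an interferon-inducible protein of the PYHIN family that is not on that list, had 107.8 and 143.6 CPM in B16 wild-type Sdc1 cells, against 107.8 and 100 CPM in B16 knockdown cells. It had 17.3 and 19.3 CPM in c30 cells and 19.0 and 20.1 CPM in ect cells, against 25.6 and 28.1 CPM in MC38 knockdown cells. The MC38 groups were apart and the B16 groups met at their lowest wild-type value, and the difference was 0.78 (SE 0.149, adjusted p = 0.013). Ifit1, a relative of Ifit3, differed by 0.51 (adjusted p = 0.313), Oas1a by 0.23 and Isg15 by -0.01, and these did not pass.

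In 5 other lists of the interferon gamma response no gene passed the edgeR test. The share of all tested genes at an unadjusted p under 0.05 was not counted. The list counts at that level, here and elsewhere, therefore cannot be set against it. None of 17 tested genes of the receptor, JAK-STAT and feedback list passed (3 at an unadjusted p under 0.05, none by DESeq2), with 0.07 for Irf1 and -0.88 for Socs1 (SE 0.245). None of 18 guanylate-binding proteins and immunity-related GTPases passed (9 at an unadjusted p under 0.05, and Igtp and Iigp1 by DESeq2), with -0.01 for Gbp2 (SE 0.077) and 0.15 for Irgm1. In the separate tests 7 of these 18 fell in MC38 and none passed in B16. None of 21 genes of MHC class I presentation passed (4 at an unadjusted p under 0.05, none by DESeq2), with -0.15 for H2-K1, -0.08 for B2m and 0.15 for Tap1. None of 14 chemokines passed (5 at an unadjusted p under 0.05, none by DESeq2), with -0.20 for Cxcl10 and -0.12 for Cxcl9. None of 10 immune checkpoint ligands passed (1 at an unadjusted p under 0.05, none by DESeq2), with -0.21 for Cd274, which encodes PD-L1 (SE 0.114). With these standard errors, the effects on Gbp2, B2m and Irf1 could still differ by a little and those on Socs1 by more than 2-fold.

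The MHC class II pathway, which presents peptides to CD4 T cells, held 2 genes with the higher effect in B16 among 10 tested, with a median of 0.25 and 9 positive differences. Cd74, the invariant chain that guides class II molecules, stood at 258.9 and 212.4 CPM in B16 wild-type Sdc1 cells, against 234.3 and 243.8 CPM in B16 knockdown cells. In MC38 it stood at 6.04 and 6.51 CPM in c30 cells and 11.1 and 10.6 CPM in ect cells, against 11.9 and 13.9 CPM in knockdown cells. The B16 groups overlapped, and in MC38 the c30 libraries lay lowest with the ect libraries just under the knockdown. The difference was 0.62 (SE 0.144, adjusted p = 0.0426) against the MC38 mean, 1.02 (adjusted p = 0.0041) against c30 and 0.23 (adjusted p = 0.645) against ect. H2-DMb1, a subunit of the class II peptide exchanger, stood at 82.7 and 69.1 CPM in B16 wild-type Sdc1 cells, against 60.5 and 64.2 CPM in B16 knockdown cells. It stood at 20.8 and 16.8 CPM in c30 cells and 23.2 and 21.9 CPM in ect cells, against 26.8 and 26.8 CPM in MC38 knockdown cells. Its groups did not overlap in either line, and it differed by 0.67 (SE 0.147, adjusted p = 0.0314). Ciita, the master regulator of class II genes, differed by 0.11 (SE 0.133) and H2-Aa by 0.61 with a wide error (SE 0.226). Ifit3b, Ifi203, Cd74 and H2-DMb1 lost their call in 3 to 8 of the fits that left out a library, with adjusted p-values of up to 0.6399.

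Among regulators of transcription, the paired repressors Bhlhe41 and Bhlhe40, which feed back on the circadian clock, both had the higher effect in B16. Bhlhe41 had the largest positive difference of the genes that passed at 5 CPM or more in both lines. It stood at 98.7 and 101.1 CPM in B16 wild-type Sdc1 cells, against 86.3 and 80.6 CPM in B16 knockdown cells. It stood at 8.10 and 6.16 CPM in c30 cells and 8.51 and 7.80 CPM in ect cells, against 13.8 and 10.3 CPM in MC38 knockdown cells. The groups did not overlap in either line, and the difference was 0.93 (SE 0.169, adjusted p = 0.007). Bhlhe40 stood at 42.8 and 38.3 CPM in B16 wild-type Sdc1 cells, against 35.6 and 35.2 CPM in B16 knockdown cells. It stood at 10.9 and 12.7 CPM in c30 cells and 12.7 and 10.7 CPM in ect cells, against 16.8 and 20.1 CPM in MC38 knockdown cells. Its difference was 0.85 (SE 0.172, adjusted p = 0.0177), again with no overlap in either line. Bhlhe41 lost its call in 2 and Bhlhe40 in 5 of the fits that left out a library.

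H1f0, the linker histone H1.0, had 99.3 and 94.4 CPM in B16 wild-type Sdc1 cells, against 86.7 and 89.8 CPM in B16 knockdown cells. It had 625.1 and 643.6 CPM in c30 cells and 624.9 and 612.6 CPM in ect cells, against 894.4 and 857 CPM in MC38 knockdown cells. Its difference of 0.62 (SE 0.085, adjusted p = 0.000378) was among those kept whichever library was left out, between 0.58 and 0.66. Xbp1, a transcription factor of the unfolded protein response, differed by 0.58 (adjusted p = 0.0177), with 74.8 and 68.7 CPM in B16 wild-type Sdc1 cells against 64.6 and 59.5 CPM in B16 knockdown cells. It had 48.4 and 53.1 CPM in c30 cells and 47.3 and 44.9 CPM in ect cells, against 62.0 and 62.9 CPM in MC38 knockdown cells. Xbp1 was the only one of 19 chaperone and stress genes of the endoplasmic reticulum list that passed by edgeR, and Hspa5 passed too by DESeq2. In this list 16 of the 19 differences were positive and Hspa5, the main chaperone there, differed by 0.25 (SE 0.079, adjusted p = 0.172, edgeR). Kansl1l differed by 0.76 (adjusted p = 0.0472). Tcf7, a transcription factor of Wnt signalling, differed by 1.17 (adjusted p = 0.0367) from 48 and 56 reads in B16 wild-type Sdc1 libraries, against 41 and 24 in B16 knockdown libraries. It had 254, 268, 243 and 311 reads in the c30 and ect libraries, against 444 and 400 in the MC38 knockdown libraries.

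A few lysosomal genes had the higher effect in B16. Of 27 tested lysosomal genes 2, Gpnmb and Atp6v0d1, had a higher effect in B16 and 21 differences were positive, with a median of 0.14. Gpnmb, a glycoprotein of melanosomes and lysosomes, stood at 9686 and 8998 CPM in B16 wild-type Sdc1 cells, against 9110 and 9176 CPM in B16 knockdown cells. In MC38 cells it had 321.3 and 318.2 CPM in c30 cells and 286 and 283.7 CPM in ect cells, against 384.2 and 407.3 CPM in knockdown cells. The B16 groups overlapped, the MC38 groups did not, and the difference was 0.42 (SE 0.078, adjusted p = 0.00793). Atp6v0d1, a subunit of the proton pump, differed by 0.52 (adjusted p = 0.0276). Of genes outside that list, Gabarap, a protein of autophagosome membranes, differed by 0.46, Vps35, a subunit of the retromer, by 0.40, and Rab3il1, an exchange factor for Rab proteins, by 1.32 with 31, 28, 30 and 23 reads in c30 and ect libraries, against 85 and 56 in MC38 knockdown libraries. Lamp1 and Lamp2, with differences of 0.22 and 0.26, did not pass.

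Of 18 tested collagens only Col1a2, a chain of type I collagen, passed by edgeR, and DESeq2 called Col18a1 as well. It stood at 12.6 and 10.5 CPM in B16 wild-type Sdc1 cells, against 9.69 and 10.7 CPM in B16 knockdown cells. It stood at 157 and 152 CPM in c30 cells and 170.9 and 174 CPM in ect cells, against 247.4 and 251.2 CPM in MC38 knockdown cells. The B16 libraries overlapped at a low level, the MC38 libraries did not, and the difference was 0.79 (SE 0.136, adjusted p = 0.00434). Its partner chain Col1a1 did not pass, with a difference of -0.28 and a wide error (SE 0.288). Col5a1 fell in both lines, by 0.43 in B16 and by 0.51 in MC38 on the log2 scale, with a difference of 0.08 (SE 0.105). Plod2, which hydroxylates collagen lysines, differed by 0.56 (adjusted p = 0.0175), with 0.22 in B16 and -0.34 in MC38.

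**Figure D3:**
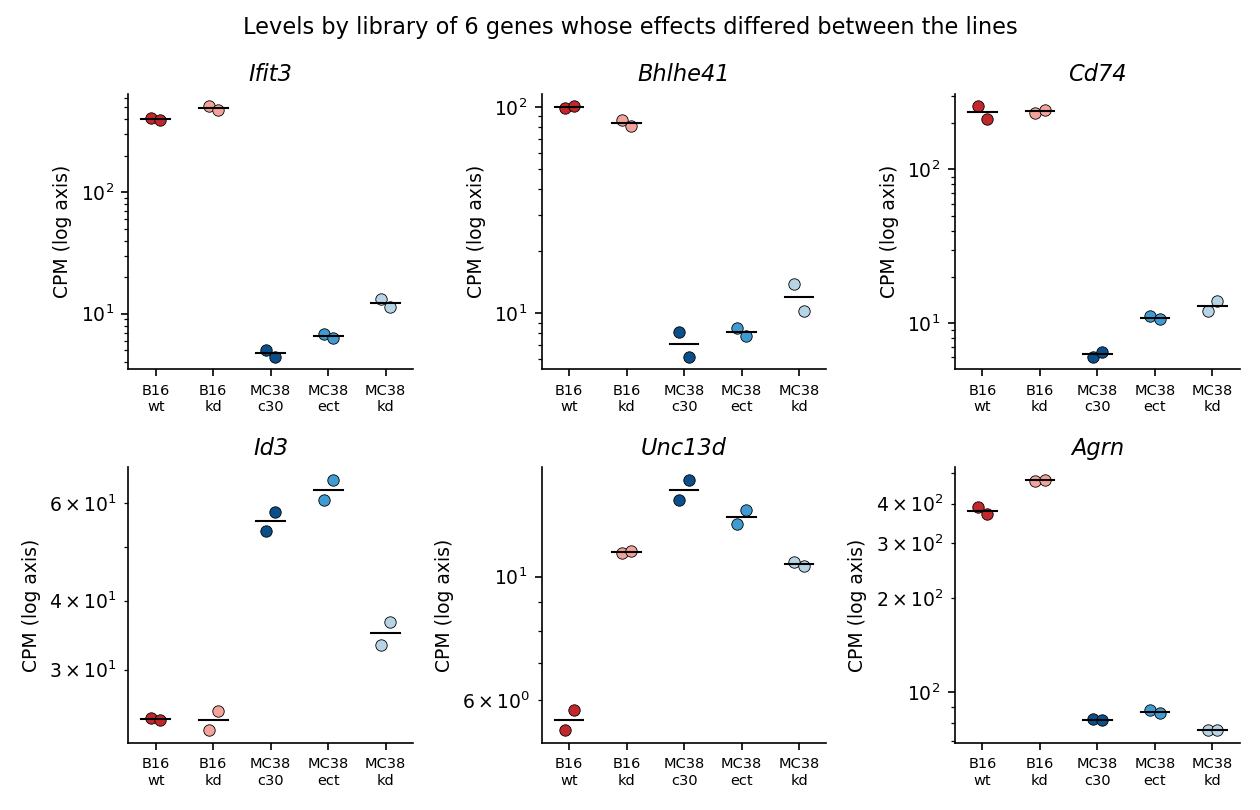
CPM by library (points, log axis, range set for each gene) with the group mean (line) for Ifit3, Bhlhe41, Cd74, Id3, Unc13d and Agrn in B16 wild-type Sdc1 (wt), B16 knockdown (kd), MC38 c30, MC38 ect and MC38 knockdown cells. Ifit3 lies lower in the cells given a form of Sdc1 in both lines. Id3 lies higher with c30 and ect in MC38 only, and Unc13d and Agrn lie lower with wild-type Sdc1 in B16.

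The remaining genes with the higher effect in B16 were of mixed function. Ndrg1, a hypoxia-responsive gene, had 62.8 and 50.9 CPM in B16 wild-type Sdc1 cells, against 54.7 and 62.3 CPM in B16 knockdown cells. It had 75.8 and 85.6 CPM in c30 cells and 83.9 and 79.4 CPM in ect cells, against 123.5 and 119.3 CPM in MC38 knockdown cells. The B16 groups overlapped and the MC38 groups did not, and the difference was 0.54 (SE 0.123, adjusted p = 0.0371). Ndrg1 was the only one of 33 tested rows of the hypoxia and glycolysis list that passed, and 28 of the 33 differences were positive, with a median of 0.23. Tuba1a, an alpha tubulin, differed by 0.38 (adjusted p = 0.0455) and was the only one of 13 tubulins that passed. Erbb3, the neuregulin receptor, differed by 0.69, Mindy2, a deubiquitinase, by 0.64, Klhl24 by 0.60, Pmp22, a myelin membrane protein, by 0.57, Dpysl3, a cytoskeletal phosphoprotein, by 0.49 and Cd109, a co-receptor of the TGF-beta receptor, by 0.40.

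Both genes left of this direction were low in 1 line, so their reads are given. Prex2, which activates the GTPase Rac, had 1208 and 1384 reads in B16 wild-type Sdc1 libraries, against 1224 and 956 in B16 knockdown libraries. It had 39, 35, 38 and 51 reads in the c30 and ect libraries, against 92 and 84 in MC38 knockdown libraries, and differed by 1.21 (SE 0.190, adjusted p = 0.0014). Cdh1, E-cadherin, had 11 and 10 reads in B16 wild-type Sdc1 libraries, against 5 and 1 in B16 knockdown libraries. It had 105 and 84 reads in c30 and 63 and 103 in ect libraries, against 189 and 184 in MC38 knockdown libraries, and a fitted difference of 2.69 (SE 0.63, adjusted p = 0.0469) that rests on near-empty B16 counts. Cdh1 is one of the 21 epithelial markers and enters their sum. That sum was lower in the c30 and ect libraries than in the MC38 knockdown libraries, as given above. Of the 6 epithelial markers tested, 2 had a negative MC38 effect, and the median MC38 effect over the 6 was 0.14. The 21 markers summed to 9.498 to 11.76 CPM in B16.

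Among the 33 genes with the lower effect in B16, the largest difference at 5 CPM or more in both lines, pseudogenes aside, was that of Unc13d, which primes secretory granules for release. It stood at 5.30 and 5.76 CPM in B16 wild-type Sdc1 cells, against 11.02 and 11.1 CPM in B16 knockdown cells. The MC38 levels were 13.7 and 14.9 CPM in c30 cells and 12.5 and 13.2 CPM in ect cells, against 10.6 and 10.5 CPM in knockdown cells. The groups did not overlap in either line and lay on opposite sides of the knockdown. The B16 effect was -0.998 (adjusted p = 0.00836), the MC38 effect 0.36 (adjusted p = 0.186), and the difference -1.36 (SE 0.229, adjusted p = 0.00325), between -1.42 and -1.31 whichever library was left out.

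Several signalling genes had the lower effect in B16. Dusp5, a nuclear phosphatase that switches off ERK, had 1 and 0 reads in B16 wild-type Sdc1 libraries, against 14 and 16 in B16 knockdown libraries. It had 221 and 267 reads in c30 and 229 and 288 in ect libraries, against 175 and 168 in MC38 knockdown libraries. It fell in B16 and rose in MC38, the only tested gene to do so with both effects passing, and the fitted difference of -5.31 (adjusted p = 0.000713) is set by near-empty B16 counts and is no measure of size. Of 16 tested ERK feedback genes it alone passed; Dusp6 differed by -0.28 and Dusp4 by 0.38. Rap1gap, which switches off the GTPase Rap1, stood at 21.3 and 17.8 CPM in B16 wild-type Sdc1 cells, against 24.2 and 27.1 CPM in B16 knockdown cells. It stood at 15.2 and 16.8 CPM in c30 cells and 15.6 and 15.3 CPM in ect cells, against 10.3 and 9.93 CPM in MC38 knockdown cells. No groups overlapped, and the difference was -1.02 (SE 0.189, adjusted p = 0.00793). Asap2, which acts on the GTPase Arf, differed by -0.63 (adjusted p = 0.0275). Csf1, the growth factor of macrophages, differed by -0.38 (SE 0.081, adjusted p = 0.0265), with 228.2 and 223.1 CPM in B16 wild-type Sdc1 cells against 247.8 and 244 CPM in B16 knockdown cells. It had 490.4 and 482.1 CPM in c30 cells and 472.1 and 458.2 CPM in ect cells, against 395 and 399.8 CPM in MC38 knockdown cells. Csf1 was the only one of 19 tested NF-kB regulators and targets that passed, and 17 of the 19 differences were negative.

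Id3, which blocks basic helix-loop-helix factors and is a target of BMP and SMAD signalling, passed for the MC38 effect and not for the B16 effect. It stood at 24.5 and 24.4 CPM in B16 wild-type Sdc1 cells, against 23.3 and 25.3 CPM in B16 knockdown cells. It stood at 53.5 and 58.0 CPM in c30 cells and 60.9 and 66.3 CPM in ect cells, against 33.3 and 36.6 CPM in MC38 knockdown cells. The B16 libraries lay close together and the MC38 groups were far apart, with effects of 0.01 in B16 and 0.77 in MC38 (adjusted p = 5.11e-06), and the difference was -0.76 (SE 0.143, adjusted p = 0.00887). Its relatives did not pass, and DESeq2 called Bambi beside Id3 among the 18 genes of that list: Id1, low in B16, differed by -0.41 (SE 0.271) and Id2 by -0.30 (SE 0.135). Fosl2, a subunit of AP-1, passed for the B16 effect and not for the MC38 effect. It stood at 45.2 and 41.5 CPM in B16 wild-type Sdc1 cells, against 61.2 and 65.3 CPM in B16 knockdown cells, and at 64.5 and 71.8 CPM in c30 cells and 71.5 and 72.6 CPM in ect cells, against 67.2 and 74.2 CPM in MC38 knockdown cells. Its effects were -0.55 in B16 (adjusted p = 0.00673) and -0.01 in MC38, and its difference of -0.53 (SE 0.118, adjusted p = 0.0317) was the only one among 20 tested immediate early and AP-1 genes that passed.

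A proteoglycan and a pair of procollagen proteases were among the genes with the lower effect in B16. Agrn encodes agrin, a heparan sulphate proteoglycan of basement membranes. It stood at 391.1 and 369.6 CPM in B16 wild-type Sdc1 cells, against 472.9 and 477.8 CPM in B16 knockdown cells. It stood at 81.99 and 81.67 CPM in c30 cells and 87.8 and 85.7 CPM in ect cells, against 75.97 and 75.76 CPM in MC38 knockdown cells. The groups did not overlap in either line and lay on opposite sides of their knockdown, and the difference was -0.47 (SE 0.086, adjusted p = 0.007). It was the only one of 12 tested heparan sulphate proteoglycans that passed by edgeR, while DESeq2 also called Col18a1 and Sdc2. The other syndecans gave 0.53 for Sdc2 (adjusted p = 0.0569), -0.45 for Sdc3 (adjusted p = 0.376) and 0.11 for Sdc4 (adjusted p = 0.73), and none of 17 genes of heparan sulphate synthesis and editing passed by edgeR or DESeq2, with 2 at an unadjusted p under 0.05 and a median of 0.01. Adamts14 and Bmp1 cut the ends off procollagens. Adamts14 stood at 27.1 and 27.5 CPM in B16 wild-type Sdc1 cells, against 38.0 and 40.9 CPM in B16 knockdown cells, with a difference of -0.61 (SE 0.134, adjusted p = 0.0314). Bmp1 stood at 57.6 and 48.1 CPM in B16 wild-type Sdc1 cells, against 75.2 and 72.1 CPM in B16 knockdown cells, with a difference of -0.49 (SE 0.108, adjusted p = 0.0314). In MC38 neither effect passed, at 0.08 for Adamts14 and 0.01 for Bmp1.

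Ecm1, a secreted matrix protein, stood at 20.2 and 18.1 CPM in B16 wild-type Sdc1 cells, against 22.5 and 25.8 CPM in B16 knockdown cells. It stood at 373.1 and 399.7 CPM in c30 cells and 348.7 and 361.3 CPM in ect cells, against 295.3 and 308.3 CPM in MC38 knockdown cells. No groups overlapped, and the difference was -0.63 (SE 0.114, adjusted p = 0.007). Ecm1 was the only one of 28 tested matrix glycoproteins that passed. Plaur, the urokinase receptor, stood at 20.4 and 15.5 CPM in B16 wild-type Sdc1 cells, against 22.3 and 24.3 CPM in B16 knockdown cells. It stood at 70.1 and 73.6 CPM in c30 cells and 71.7 and 67.3 CPM in ect cells, against 52.5 and 52.7 CPM in MC38 knockdown cells. Again no groups overlapped, and the difference was -0.80 (SE 0.150, adjusted p = 0.00887). The cytoskeletal linkers Plec and Phldb1 differed by -0.40 and -0.42.

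Hdac6, which takes acetyl groups off tubulin, differed by -0.61 (SE 0.131, adjusted p = 0.0294), with 40.1 and 42.9 CPM in B16 wild-type Sdc1 cells against 50.5 and 50.2 CPM in B16 knockdown cells. It had 43.9 and 46.0 CPM in c30 cells and 40.2 and 37.0 CPM in ect cells, against 34.1 and 32.3 CPM in MC38 knockdown cells. Ccdc9b differed by -0.61 (SE 0.112, adjusted p = 0.007) and fell in B16 by 0.46 on the log2 scale (adjusted p = 0.0174). Rab10os, named as an opposite-strand transcript of Rab10, differed by -0.76 (adjusted p = 0.0297), but no source used here says whether the counting used strand, so its reads cannot be told from those of its partner. The other genes of this direction were the chromatin methyltransferase Kmt2d at -0.50, the intramembrane protease Sppl2b at -0.54, Tnks1bp1, which binds tankyrase, at -0.49, the centrosomal Cchcr1 and Lrrc45, both at -0.48, the lipid enzyme Pgs1 at -0.47, the ribosome assembly factor Mdn1 at -0.41, the purine enzyme Pfas at -0.39 and the RNA-binding Khsrp at -0.38. Upp1, uridine phosphorylase, differed by -1.20 and Zfp810, a zinc finger protein, by -2.31, from 37 and 25 reads of Upp1 in B16 wild-type Sdc1 libraries and from 4 and 4 reads of Zfp810 in MC38 knockdown libraries. The pseudogenes Rps19-ps6 at -1.60, Rpl34-ps1 at -1.03 and Gm44524 could share reads with their parent genes. The fitted -4.63 of Gm44524 rests on 1 and 1 reads in B16 wild-type Sdc1 libraries, against 18 and 16 in B16 knockdown libraries, and is no measure of size; DESeq2 gave it no adjusted p. The other loci were Gm38357 at -1.16 and 1810032O08Rik at -0.78.

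In this direction 7 genes passed for the B16 effect and not for the MC38 effect: Unc13d, Ccdc9b, Adamts14, Fosl2, Bmp1, Tnks1bp1 and Agrn. No gene with the higher effect in B16 did so. Of the genes described here, Unc13d and Dusp5 kept their call whichever library was left out, and Agrn lost it in 3, Ccdc9b in 3, Ecm1 in 2, Id3 in 2, Plaur in 3, Rap1gap in 3, Asap2 in 6, Fosl2 in 7 and Adamts14, Bmp1, Csf1, Hdac6 and Rab10os in 8 of the 10 fits, with adjusted p-values of up to 0.3168.

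The MC38 side of the difference is a mean of the c30 and ect effects, which share their MC38 knockdown libraries, so the values against each are given side by side and not as separate support. Against c30 alone 48 genes passed (0.284%), 25 higher (0.148%) and 23 lower (0.136%) in B16. Against ect alone 82 passed (0.486%), 48 higher (0.284%) and 34 lower (0.201%). All 82 genes of the main comparison had the same sign against each form, as did 13779 of all 16877 tested genes. The 82 were picked by the mean of the same values, which makes a shared sign likely in advance. Of the 49 with the higher effect in B16, 22 passed against c30 and 44 against ect. Of the 33 with the lower effect, 19 passed against c30 and 25 against ect. For Hmgcs1 the difference was 0.74 against c30 and 0.84 against ect, for Insig1 0.77 and 0.79, for Scd1 0.71 and 0.82, for Unc13d -1.44 and -1.28 and for Id3 -0.67 and -0.86. Among the genes of the plot of both forms, the values lay furthest apart for Sdc1, for Cd74 at 1.02 against c30 and 0.23 against ect, and for Ifit3 at 1.09 against c30 and 0.63 against ect. For Cd74 the direct comparison of c30 with ect gave -0.78 and did not pass (adjusted p = 0.0638).

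**Figure D4:**
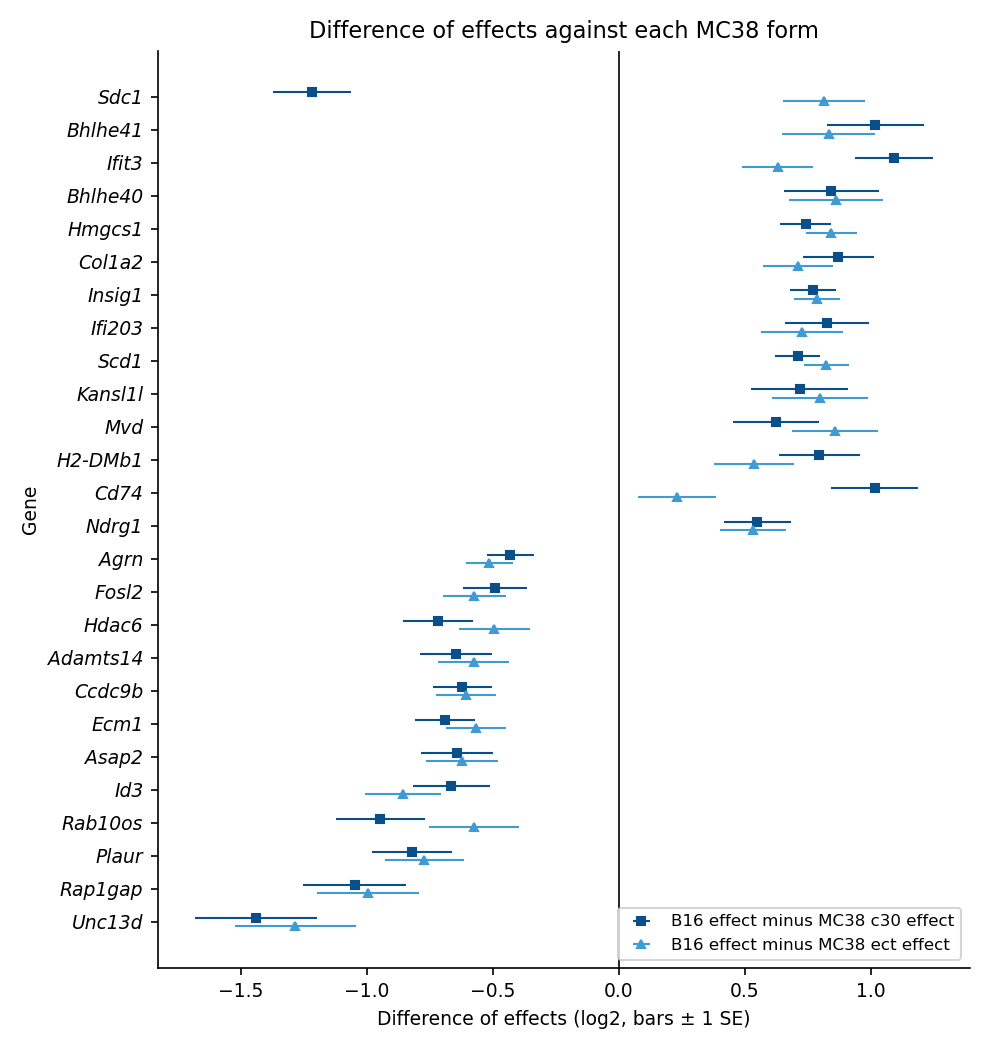
Difference of effects on the log2 scale, B16 minus MC38, for Sdc1 and 25 named genes, with the c30 form (squares) and the ect form (triangles) as the MC38 arm and bars of 1 SE; both arms share the MC38 knockdown and all B16 libraries. The arms lie on the same side of zero for each gene except Sdc1, at -1.22 with c30 and 0.81 with ect.

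Of the 40 gene lists, cholesterol synthesis stood furthest from zero in its median among the 35 lists with at least 5 genes at 5 CPM or more in both lines. The genes encoded in mitochondrial DNA came next by their differences over such genes. All 15 of these had a positive difference, with a median effect of 0.27 in B16 and 0.00 in MC38 over the 15, but none passed by edgeR, with 6 at an unadjusted p under 0.05 and mt-Co1 and mt-Cytb passing by DESeq2. Of these mt-Co1 had a difference of 0.30 (adjusted p = 0.11, edgeR). The nuclear genes of oxidative phosphorylation did not follow, with a median of 0.00 over 40 genes. Ribosomal protein genes had a median of -0.03 over 52 genes, with effects of 0.11 in B16 and 0.14 in MC38. At the other end, YAP-TEAD targets had a median of -0.18 over 16 genes, of which none passed by edgeR or DESeq2 and 5 had an unadjusted p under 0.05. Cell cycle genes had a median of 0.07 over 32 genes, of which none passed by edgeR, 7 had an unadjusted p under 0.05 and Mki67 passed by DESeq2. Transcripts of the genes with the lower effect in B16 had a median GC content of 55.48% and those with the higher effect 48.71%, against 49.36% over all tested genes. The second B16 wild-type Sdc1 library showed the strongest trend with length and GC. With an offset for both, 326 genes passed and 81 of the 82 were among them. The part of this trend in the result was not tested.

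**Figure D5:**
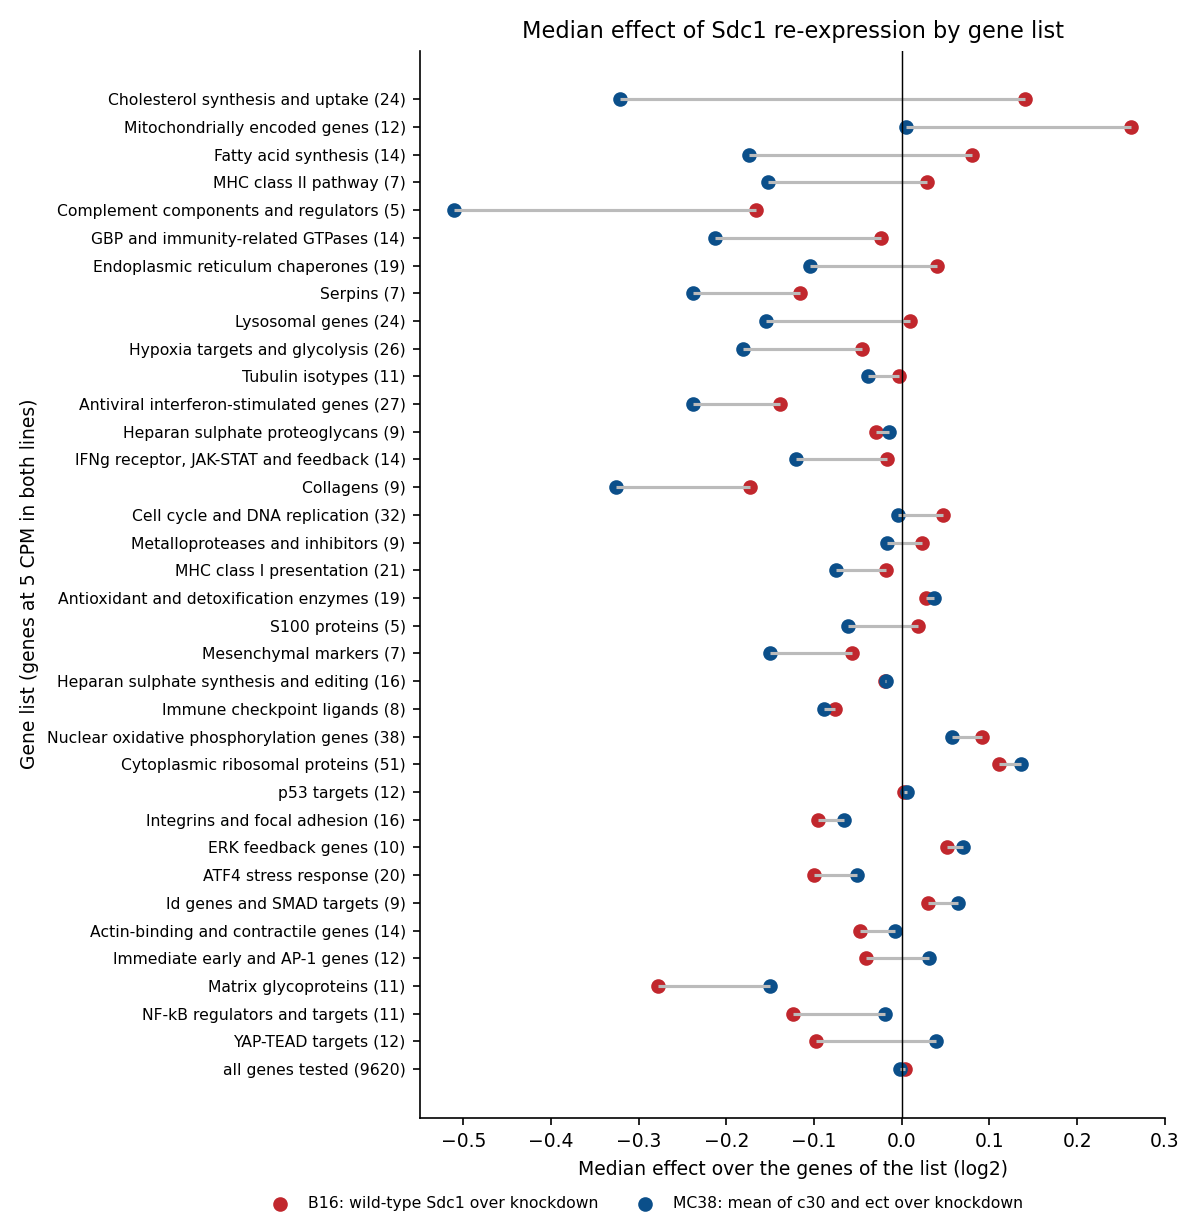
Median log2 effect of putting Sdc1 back in B16 and in MC38 for each of 35 gene lists, over the members at 5 CPM or more in both lines (number in brackets), ordered by the median difference, with all 9620 such genes in the last row. Cholesterol synthesis has its B16 median at 0.14 and its MC38 median at -0.32, the widest gap of the lists drawn.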

How the data were processed

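Reads were counted per gene by the authors. The 10 libraries were mRNA libraries of TRIzol RNA, sequenced in paired ends on an Illumina HiSeq, per the labels' protocols. Build GRCm39, HISAT2 2.0.5 and, with no version, Trimmomatic, DESeq2, featureCounts and HTSeq are named in the submitters' processing notes; which counter made the table, its strand setting and its annotation are not given in the sources used here. The deposited values are raw counts, 60676 rows of which 51884 have a symbol, and none of them is normalized.

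From the counts, edgeR 4.0.16 (R 4.3.3) fitted the 5 groups of all 10 libraries together, with filterByExpr, TMM scaling and robust quasi-likelihood tests, 2-sided, with Benjamini-Hochberg adjustment over 16877 genes; a gene passed at an adjusted p under 0.05. CPM values use the TMM-scaled library sizes. The SE is the size of the log2 value over the square root of F. The difference was tested as a contrast, and the B16, MC38, c30 and ect effects came from the same fit. A count of 3 in a library, taken as a floor, is 0.199 to 0.264 CPM, and this floor covers counting error only. The SE also includes the fitted spread between libraries.

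The test of the difference was also run on counts simulated from the means and spread of the main fit. There 3 of 50 changes of 1.2-fold were recovered, 27 of 50 of 1.5-fold and 48 of 50 of 2-fold, with 11 false calls. Transcript length and GC were known for 91.4% of tested genes, from an annotation of build GRCm38 matched by identifier; coordinates in the text are those of the RefSeq promoter table.

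Named genes were Sdc1, the 10 largest passing differences in each direction at 5 CPM in both lines (predicted genes and pseudogenes aside), genes passing in both lines with opposite signs, and up to 2 passing members of each of 40 gene lists. Some listed genes enter the counts and medians but are not reported here by name. The members and lists were chosen with earlier results of these data known. Replicate numbers did not pair the libraries. Alternatives were RLE scaling, no filter or a filter at 5 CPM, DESeq2 1.42.0, limma-voom (limma 3.58.1) without and with quality weights, a replicate block, a single MC38 form, leaving out mitochondrial, ribosomal and unnamed rows, an offset for length and GC (mgcv 1.9.3), each line fitted alone, and leaving out each library.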

Additional observations from a re-analysis of the deposited data

Results flagged for a closer look

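Each value here is a difference of effects, B16 minus MC38, on the log2 scale, flagged because a test of the difference itself passed. There were 82 such genes, and those that are named by the rule, belong to a gene list or were chosen after their values were seen follow, as far as they are reported here.

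In sterol synthesis the values were Hmgcs1 0.79, Insig1 0.78, Mvd 0.74, Sqle 0.58, Fdps 0.58, Fdft1 0.57, Idi1 0.57, Nsdhl 0.55, Cyp51 0.55, Msmo1 0.53, Acat2 0.50 and Lss 0.43, with Tmem97 at 0.48. In fatty acid metabolism they were Scd1 0.77, Acsl3 0.53, Fads1 0.43 and Scd2 0.34, and Idh1 had 0.55. Interferon and class II genes gave Ifit3b 1.35, Ifit3 0.86, Ifi203 0.78, H2-DMb1 0.67 and Cd74 0.62. Regulators of transcription and chromatin gave Bhlhe41 0.93, Bhlhe40 0.85, Kansl1l 0.76, H1f0 0.62 and Xbp1 0.58. Collagen genes gave Col1a2 0.79 and Plod2 0.56, lysosomal genes Atp6v0d1 0.52 and Gpnmb 0.42, and the others Cdh1 2.69, Prex2 1.21, Ndrg1 0.54 and Tuba1a 0.38.

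Of the genes with the lower effect in B16, signalling and secretion genes gave Dusp5 -5.31, Unc13d -1.36, Rap1gap -1.02, Id3 -0.76, Asap2 -0.63, Fosl2 -0.53 and Csf1 -0.38. Matrix and surface genes gave Plaur -0.80, Ecm1 -0.63, Adamts14 -0.61, Bmp1 -0.49 and Agrn -0.47. The others were Rab10os -0.76, Ccdc9b -0.61 and Hdac6 -0.61.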

How the results depend on the processing

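All 1712 values of the 82 genes under the alternatives had the sign of the main fit. Every alternative uses the counts from which the 82 were picked, so this shared sign is no separate support. Of the 21 alternatives with a test, every one kept the calls of Cyp51, Fdps, Hmgcs1, Insig1, Sqle, Scd1, Idh1, H1f0 and Unc13d. Only Sdc1, which did not pass, changed sign, to 0.81 with ect alone as the MC38 arm. The number of genes whose effects differed was 82, and it was 211 with no filter, 126 with DESeq2, 28 with limma-voom, 39 with limma-voom and quality weights (29 higher and 10 lower), 48 with c30 alone, 326 with the length and GC offset, and 19 to 1278 with a library left out. The B16 count of 27 became 103 with no filter, 11 with quality weights, 99 with the offset and 6 to 1194 with a library left out. The MC38 count of 458 became 733, 990 and 1182 under the same changes and 72 to 1466 with a library left out. The count of 48 against c30 became 159 with no filter, 77 with DESeq2, 13 with limma-voom, 27 with quality weights, 258 with the offset and 13 to 1096 with a library left out. The count of 82 against ect became 189 with no filter, 23 with limma-voom, 35 with quality weights, 319 with the offset and 13 to 1170 with a library left out. A library left out leaves a lone sample that is assumed to vary like the other groups. The cause of these moves was not tested. With a replicate block within each line, 40 genes differed and 41 differed against ect; the correlations of the deviations of same-numbered libraries ran from -0.123 to 0.0438, so the numbers do not pair the libraries. All 24 cholesterol genes had positive differences under each setting except without the first B16 wild-type Sdc1 library, where 23 did. With 2 libraries a group and these depths, small differences can be missed.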
